A study of Homo sapiens with 11 samples.

Results

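ENO2, CHGA, CHGB, SYP, NCAM1, INSM1, SCG2, REST and UCHL1, a set of 9 genes that serve as markers or regulators of the neuroendocrine state, were followed by gene symbol through PC-3 tumours and are 9 of the 25590 genes of the deposited tables. PC-3 cells are an established human line from a prostate carcinoma. The tumours grew subcutaneously in male athymic nude mice that were 8 weeks old when they received the cells, 7 days before the first intraperitoneal dose. Control mice were given PBS, and treated mice were given A2M*, the transformed form of the proteinase inhibitor alpha2-macroglobulin, at 5.6 mg per 20 g body weight every second day until day 31. RNA was sequenced from 5 PBS and 6 A2M* tumours, with 1 library per tumour, and the question was whether A2M* changed the transcriptome of the tumour cells. Tumours are named here by T and the tumour number of the labels. All come from 1 cell line, the hosts lack a working thymus, and only reads sorted as human were counted. No source used here says that each tumour came from a separate mouse, so p-values measure the spread between these tumours.

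Neuroendocrine cells of the prostate store peptides in dense-core granules, and prostate carcinoma cells can take on some of their features. CHGA, CHGB and SCG2 encode granins, the soluble cargo of these granules, and SYP encodes synaptophysin, a membrane protein of secretory vesicles. NCAM1 is an adhesion molecule of nerve cells, UCHL1 a neuronal ubiquitin hydrolase, ENO2 the neuron-specific enolase and INSM1 a transcription factor of neuroendocrine differentiation. REST stands opposite to these genes: it is a zinc finger repressor that binds RE1 elements and recruits corepressors that keep neuronal genes silent in other cells.

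In the PC-3 tumours these 9 genes lay at very different levels. ENO2 was abundant, REST was at a middle level, SYP and SCG2 were low, and CHGA, CHGB, NCAM1, UCHL1 and INSM1 were at or near 0 reads. ENO2 had a lower mean in A2M* tumours, but the difference did not pass the threshold after adjustment over all genes. Between tumours, ENO2 rose and fell with genes known to be induced by hypoxia.

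RE1 elements near the gene starts are shown because they are the letters through which REST acts. Windows of 5000 bases on each side of the start of each gene were searched in GRCh37, on both strands, for TTCAGCACC, NN and GGACAGCGC, comparing 18 letters and allowing at most 3 mismatches. The matches below are written 5′ to 3′ on the strand of the gene, and capitals mark letters equal to the motif.
CHGA: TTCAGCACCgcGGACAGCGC
CHGB: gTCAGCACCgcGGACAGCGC
SYP: TcCAGCACCgtGGACAGaGC
The CHGA match, at chr14:93389868-93389887, had 0 mismatches and began 373 bases after the gene start. The CHGB match, at chr20:5892350-5892369, had 1 mismatch and lay 194 bases after the start. The SYP match, on the minus strand at chrX:49056582-49056601, had 2 mismatches and lay 76 bases after the start. All 3 lie in introns of their genes. Of 20149 protein-coding genes, 12 (0.0596%) had a match without mismatch, 176 (0.873%) one with at most 2 mismatches and 508 (2.52%) one with at most 3. The windows of the other 6 members held no such letters. A match is a description of the sequence, since binding of REST was not measured.

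Within the gene annotation of GRCh37, ENO2 lies at chr12:7022909-7032861 and REST at chr4:57774042-57832974, both on the plus strand. SYP (chrX:49044268-49056677) and SCG2 (chr2:224461658-224467079) are on the minus strand. The exons of REST overlap NOA1, those of SYP overlap SYP-AS1, those of UCHL1 overlap UCHL1-DT and those of NCAM1 overlap 3 non-coding genes, each on the other strand. The library kit does not mark strand, so reads inside the shared stretches cannot be assigned to either gene by strand. How much of each gene is shared was not measured, and reads outside these stretches are not affected.

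The depth behind the values was between 26042224 and 35874381 counted reads per PBS tumour and between 16958533 and 33223999 per A2M* tumour. Group means of the totals differed by -5.52e+06 (exact permutation test, two-sided, of the treatment labels, p = 0.119). The smallest amount taken as detected was 3 counts, which equalled between 0.0836 and 0.177 RPM (reads per 1e+06 counted reads), a limit that covers counting error only. All 5 epithelial markers were present, with KRT19 at 394 and KRT8 at 245 RPKM (RPM per kilobase of exon). The luminal prostate marker KLK3 had 0 reads in all 11 tumours. Markers of host stroma, blood and nerve summed to between 413.1 and 754.4 RPM in PBS and between 410.5 and 1003 RPM in A2M* tumours, mostly from COL1A1.

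Levels were first compared between genes on the RPKM scale, averaged over the 11 tumours. ENO2 had a mean level of 69.0 RPKM, above 96.4% of all genes in the tables. REST followed with 8.48 RPKM, above 71.5% of genes. SYP reached 0.773 RPKM and SCG2 0.518 RPKM, levels below those of most genes. The remaining 5 members had mean levels of 0.0093 RPKM (NCAM1), 0.0085 (CHGB), 0.0073 (CHGA), 0.0048 (UCHL1) and 0 (INSM1).

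**Figure D1:**
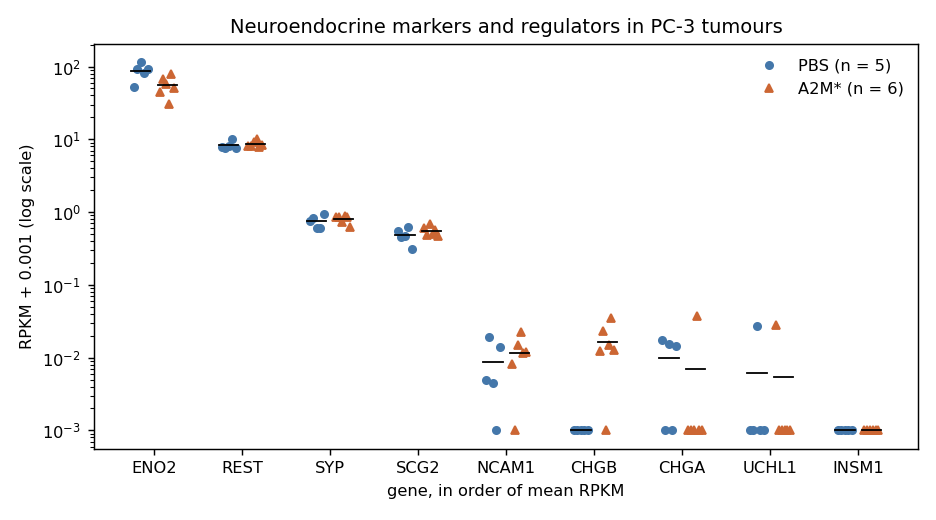
Level of each member in each tumour, as RPKM + 0.001 on a log axis, with genes in order of mean RPKM; circles are the 5 PBS tumours, triangles the 6 A2M* tumours and bars the group means. ENO2 lies between 30.4 and 113.9 RPKM and REST between 7.65 and 10.2 RPKM, while points on the lowest line are tumours with 0 reads.

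Neighbours in this order were compared within the tumours by a two-sided exact sign-flip permutation test on log2(RPKM + 0.1), with Benjamini-Hochberg adjustment over the 8 pairs. The order was set by the same values, so these p-values give no independent support for it. The level of ENO2 was 8.14 times that of REST by their means, with a ratio between 3.03 and 14.1 in single tumours (exact p = 0.000977, the smallest this test can give for 11 tumours, adjusted p = 0.0026). REST stood 11.0 times above SYP, with ratios from 8.05 to 17.1 (same exact p and adjusted p). SYP and SCG2 were much closer, at a ratio of 1.49, and SYP was the higher in 10 of 11 tumours (exact p = 0.00195, adjusted p = 0.0039). SCG2 in turn was above NCAM1 in each of 11 tumours (same adjusted p as ENO2 over REST). Among NCAM1, CHGB, CHGA, UCHL1 and INSM1 no neighbouring pair differed beyond its spread between tumours (adjusted p between 0.800 and 0.820, exact sign-flip permutation test). All of them were near the limit of detection.

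Expression of ENO2, the enolase isoform of neurons and neuroendocrine cells, varied most among the abundant members. In CPM (counts per 1e+06 after TMM normalization) the PBS tumours had 123.5 (T123), 231 (T124), 287 (T125), 195 (T126) and 228 (T127). The 6 A2M* tumours had between 71.5 and 186 CPM, with a median of 129.97. The groups overlapped: T123 lay inside the range of the A2M* group, 4 PBS tumours lay above every A2M* tumour, and 2 A2M* tumours lay below every PBS tumour. Group means were 212.9 ± 59.8 CPM (SD, n = 5) in PBS and 131.4 ± 40.9 CPM (SD, n = 6) in A2M* tumours. The fitted log2 fold change of A2M* over PBS was -0.70 (SE 0.228), corresponding to a ratio of 0.616 with a 95% interval from 0.431 to 0.882. In edgeR's quasi-likelihood test this gave a Benjamini-Hochberg adjusted p of 0.640 over all genes tested, so ENO2 did not pass the threshold of 0.01. In bulk tumours, fewer cells with ENO2 RNA and less of it per cell cannot be told apart.

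Set beside the other genes, ENO2 was 1 of many with a small unadjusted p. Of 16630 genes tested with edgeR's quasi-likelihood test, 0 (0%) had an adjusted p under 0.01, while 1178 (7.08%) had an unadjusted p under 0.05, 591 higher and 587 lower in A2M* tumours. Of the 4 members that passed the filter on low counts, 1 was among the latter, ENO2 (unadjusted p = 0.00874). DESeq2 and edgeR's exact and likelihood ratio tests each called 1 gene, REP15, at the adjusted threshold and limma-voom called 0, and none of these 4 tests called a member. In size, 46 of the 16630 genes had a log2 fold change at or below that of ENO2, and 97.7% of genes lay within 0.5 of 0. CPM did not overlap between the groups in 118 genes (0.71%), and no tested member was among them. When edgeR and DESeq2 both had to give an unadjusted p no higher than 0.01, 241 genes passed (1.45%), and ENO2 was the 1 member among them.

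REST was steady between tumours and treatments. Its CPM was 58.1 (T123), 59.8 (T124), 62.8 (T125), 76.0 (T126) and 58.2 (T127) in PBS tumours. In A2M* tumours it lay between 57.5 and 72.7 CPM, with a median of 62.0. The groups overlapped almost fully, at 63.0 ± 7.51 CPM (SD, n = 5) against 63.4 ± 5.65 CPM (SD, n = 6), and T126 was the highest tumour. The fitted log2 fold change was 0.01 (SE 0.0847; edgeR quasi-likelihood test, Benjamini-Hochberg adjusted p = 0.988). The 95% interval of the ratio ran from 0.882 to 1.15. REST RPKM varied with a coefficient of variation of 11.0% over the 11 tumours, against 35.9% for ENO2.

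SYP, the vesicle protein with an RE1 match in its intron, was detected in every tumour with 35 to 83 reads. Its CPM was 1.79 (T123), 2.13 (T124), 1.51 (T125), 1.45 (T126) and 2.36 (T127) in PBS tumours. A2M* tumours had between 1.53 and 2.09 CPM, with a median of 2.03, all inside the PBS range. The log2 fold change of SYP was 0.04 (SE 0.157; edgeR quasi-likelihood test, Benjamini-Hochberg adjusted p = 0.976), with a 95% interval of the ratio from 0.803 to 1.31.

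SCG2 is secretogranin II, a granin from which the peptide secretoneurin is cut. It had between 21 and 52 reads per tumour, which was 1.39 (T123), 1.22 (T124), 1.24 (T125), 1.60 (T126) and 0.824 (T127) CPM in the PBS group. The A2M* group had 1.22 to 1.71 CPM, with a median of 1.32. T127 was the lowest tumour and the groups overlapped. The log2 fold change of SCG2 was 0.16 (SE 0.175; edgeR quasi-likelihood test, Benjamini-Hochberg adjusted p = 0.904), with a 95% interval of the ratio from 0.850 to 1.47. Over the 4 members tested, 3 log2 fold changes were above 0 and 1 below, with a median of 0.02, against a median of -0.0021 over all genes tested.

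The other granins and NCAM1 had very few reads. CHGA, chromogranin A, the granin most used as a marker of neuroendocrine tumours, had 1, 0, 1, 0 and 1 reads in PBS tumours T123 to T127, and 2 reads in all of the A2M* group, from T131. CHGB had 0 reads in every PBS tumour and 1, 1, 0, 1, 2 and 1 reads in A2M* tumours T128 to T132 and T112. All of these counts were under the limit of 3 counts, which equalled between 0.0409 and 0.0866 RPKM for CHGA and between 0.0316 and 0.0668 RPKM for CHGB. Mean CPM of CHGB differed between the groups with a two-sided exact permutation p of 0.0152 (5 of 6 against 0 of 5 tumours with a read), and with a Benjamini-Hochberg value of 0.0606 over the 4 members tested in this way. This difference rests on 6 reads in all, and no fold is given because both groups were under the limit.

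NCAM1 had 26 reads over the 11 tumours, in 9 of them, with at most 5 in a tumour and at least 3 in 5 tumours. PBS tumours held 11 of these reads and A2M* tumours 15 (exact permutation test of mean CPM, p = 0.578). UCHL1 had 1 read in T125 and 1 in T128, and INSM1 had 0 reads in all 11 tumours. A count of 0 allows up to 3 counts per tumour, so these data place UCHL1 below 0.157 RPKM in the shallowest tumour and do not show that any of the 5 genes was absent.

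**Figure D2:**
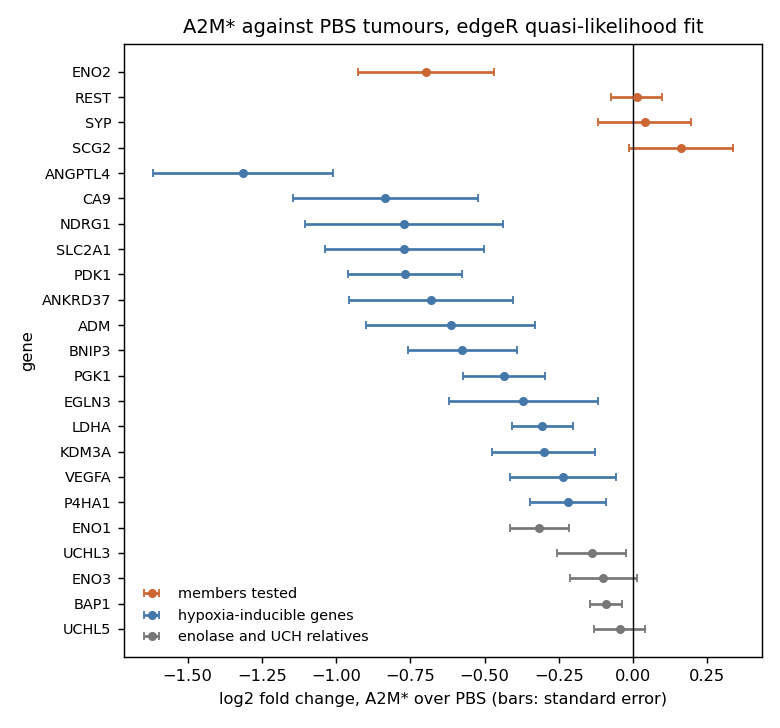
Log2 fold change of A2M* over PBS tumours (points) with standard errors (bars) in edgeR's quasi-likelihood fit, for the 4 members tested, the 14 hypoxia-inducible genes and 5 relatives of ENO2 and UCHL1. ENO2 (-0.70) lies among the hypoxia-inducible genes, which range from -1.31 to -0.22, while REST, SYP and SCG2 lie between 0.01 and 0.16.

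ENO2 is a glycolytic enzyme as well as a marker, and enolase genes are among the known targets of hypoxia-inducible factors. These factors can bind DNA at the letters ACGTG, the only core that was searched for here. The promoter of ENO2 is printed because the level of ENO2 followed that of hypoxia-inducible genes, as described next. The 250 bases before the RefSeq start of ENO2 in GRCh38.p14, at chr12:6914330-6914579 on the plus strand, are written 5′ to 3′ with ACGTG in capitals.
ENO2 promoter: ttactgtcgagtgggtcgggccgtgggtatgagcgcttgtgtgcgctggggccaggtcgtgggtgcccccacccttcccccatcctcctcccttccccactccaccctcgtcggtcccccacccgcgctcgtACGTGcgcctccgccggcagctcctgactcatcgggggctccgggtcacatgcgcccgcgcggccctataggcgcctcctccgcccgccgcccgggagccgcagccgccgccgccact
ACGTG occurred at 1 place, beginning 118 bases before the start. Searched on both strands, the 5 letters stood in 6501 of 35116 RefSeq windows of this length (18.5%). They stood in 8 of 15 windows of the hypoxia-inducible genes (53.3%), in 9 of 22 windows of the granule protein list described later (40.9%) and in 1 of 6 windows of the members (16.7%). The windows of CHGA, SYP, REST and UCHL1 did not hold them. A match of 5 letters is no site, and factor binding was not measured.

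Over the 11 tumours the log2 CPM of ENO2 followed the mean log2 CPM of 14 hypoxia-inducible genes that do not include ENO2 (Pearson r = 0.987, Spearman rho = 0.991). Each had a permutation p of 1e-05, the smallest that 100000 permutations can give, and an adjusted p of 4e-05 over the 4 members compared. The list was chosen with earlier results of these data known, and the adjustment does not cover that choice. Within the PBS group r was 0.979 (n = 5) and within the A2M* group also 0.979 (n = 6), so the relation was present inside each treatment. Without T128 and T131, the tumours farthest from the median of the hypoxia-inducible genes, r was 0.983. Leaving out 1 tumour at a time gave r between 0.983 and 0.990. With the median over the list in place of the mean, r was lower, at 0.928. The mean log2 CPM of the hypoxia-inducible genes lay between 6.77 and 7.82 in PBS and between 6.21 and 7.24 in A2M* tumours. Its part in the lower mean of ENO2 in A2M* tumours was not tested.

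The other members tested showed no such relation that passed a test. Pearson r with the hypoxia-inducible genes was -0.153 for SYP (permutation p = 0.652), -0.300 for SCG2 (permutation p = 0.375) and -0.236 for REST (permutation p = 0.484), with Spearman rho of -0.0545 (p = 0.882), -0.300 (p = 0.372) and -0.100 (p = 0.775) and adjusted p of at least 0.645 in each case. Without T128 and T131 these Pearson coefficients were 0.140, -0.366 and -0.0391. The coefficients also changed sign for REST between the groups, at 0.107 within PBS and -0.643 within A2M* tumours.

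**Figure D3:**
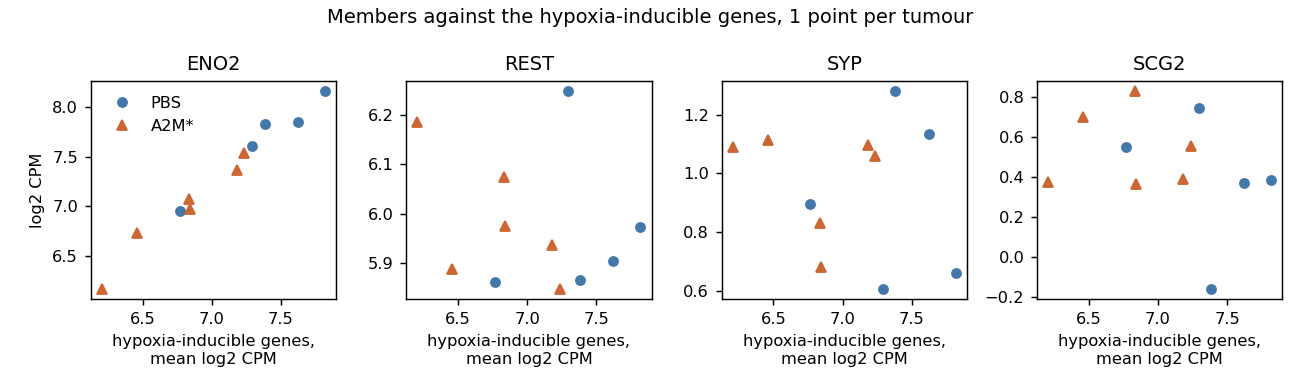
Log2 CPM of ENO2, REST, SYP and SCG2 (vertical axes) against the mean log2 CPM of 14 hypoxia-inducible genes (horizontal axes), 1 point per tumour, circles for PBS and triangles for A2M*. ENO2 rises along the axis in both groups (r = 0.987, n = 11), while the points of REST, SYP and SCG2 scatter.

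Among the hypoxia-inducible genes, all 14 had a log2 fold change below 0 in A2M* tumours. Their median was -0.59, against -0.0021 over all genes tested. In edgeR's quasi-likelihood test 10 of the 14 had an unadjusted p under 0.05, against 7.08% of all genes tested. None of the 14 passed the adjusted threshold of that test. The list was chosen with earlier results of these data known. Its genes each varied with ENO2 between tumours (r between 0.785 and 0.980), so the 10 are not independent observations. Their share is a description and no test of the list. ANGPTL4, a lipoprotein lipase inhibitor, had the lowest value at -1.31 (SE 0.302, adjusted p = 0.599), and PGK1, a glycolytic kinase, had -0.43 (SE 0.137, adjusted p = 0.640). SLC2A1, the glucose transporter GLUT1, had -0.77 (SE 0.269, adjusted p = 0.640). ENO2, at -0.70, lay inside the range of this list.

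The relatives of ENO2 put its level in context. ENO1, the ubiquitous enolase, had 676 ± 60.1 RPKM (SD, n = 5) in PBS and 560 ± 57.8 RPKM (SD, n = 6) in A2M* tumours (two-sided exact permutation test, p = 0.0108). Its log2 fold change was -0.32 (SE 0.0997; edgeR quasi-likelihood test, Benjamini-Hochberg adjusted p = 0.640). ENO2 contributed 11.1 ± 2.06% (SD, n = 5) of the summed RPKM of the 3 enolase genes in PBS tumours and 8.71 ± 2.10% (SD, n = 6) in A2M* tumours (two-sided exact permutation test, p = 0.0974). ENO3, the muscle enolase, was low at 6.03 and 5.82 RPKM. UCHL1 was near 0 while its relatives were not: BAP1 had 39.3 and UCHL3 28.3 RPKM.

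REST, as the repressor on the list, was set against the other members tumour by tumour. For SYP, Pearson r was -0.500 (permutation p = 0.120) and Spearman rho -0.527 (permutation p = 0.101), with adjusted p of 0.359 and 0.303 over the 3 members compared. It was -0.728 within the PBS group (n = 5) and -0.162 within the A2M* group (n = 6), and -0.625 without T131 and T126, the tumours farthest from the median of REST. For ENO2, r was -0.278 (permutation p = 0.405) and rho -0.0909 (permutation p = 0.799), with r of -0.0930 without T131 and T126. Within the PBS group r of ENO2 was 0.115 and within the A2M* group -0.739. For SCG2, r was 0.359 (permutation p = 0.279) and rho 0.145 (permutation p = 0.673), with r of 0.387 without T131 and T126. Within the PBS group r of SCG2 was 0.644 and within the A2M* group -0.132. None of the 3 relations passed the test. CHGA and CHGB, which carry the closest RE1 matches, had too few reads to be compared.

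Genes of the proteins that REST recruits, and of those that regulate it, were mostly well expressed. All 16 cofactors and regulators of REST passed the filter, and 14 had at least 1 RPKM on average. HDAC1, a histone deacetylase of the corepressor complexes, had 76.8 RPKM, CTDSP1, a small phosphatase that acts on REST, had 50.2 RPKM, and SMARCA4, a chromatin remodeller, had 41.4 RPKM. In the comparison of treatments, 4 of the 16 log2 fold changes were above 0 and 12 below, with a median of -0.04. An unadjusted p under 0.05 was reached by BTRC, a ubiquitin ligase subunit that targets REST, at 0.18 (SE 0.0649, edgeR adjusted p = 0.640) and by KDM1A, a histone demethylase, at -0.13 (SE 0.0587, edgeR adjusted p = 0.700). Such a p was reached by 7.08% of all genes tested. SRRM4, a splicing factor of neurons that acts on REST transcripts, was low at 0.0592 RPKM.

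Granule proteins and enzymes that process prohormones ran from high levels to a few reads. Of 17 genes on this list, 8 had at least 1 RPKM on average. STX1A, a syntaxin of vesicle fusion, had 93.6 RPKM, PAM, the enzyme that amidates peptides, 49.5 RPKM, and CPE, carboxypeptidase E, 34.6 RPKM. RE1 matches with at most 2 mismatches stood in the windows of 2 of the 17 genes, VGF and SYN1, which were picked here after their values were seen. VGF, a granin-like protein, had 4.78 RPKM on average and between 1.08 and 13.9 RPKM in single tumours. SYN1, the synapsin of synaptic vesicles, had 0.0064 RPKM on average, from 7 reads over all tumours. In the comparison of treatments, 11 genes of the list were tested, 5 were higher and 6 lower, with a median log2 fold change of -0.02. PAM alone of the 11 had an unadjusted p under 0.05, at -0.26 (SE 0.0750, edgeR adjusted p = 0.599), against 7.08% of all genes tested.

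**Figure D4:**
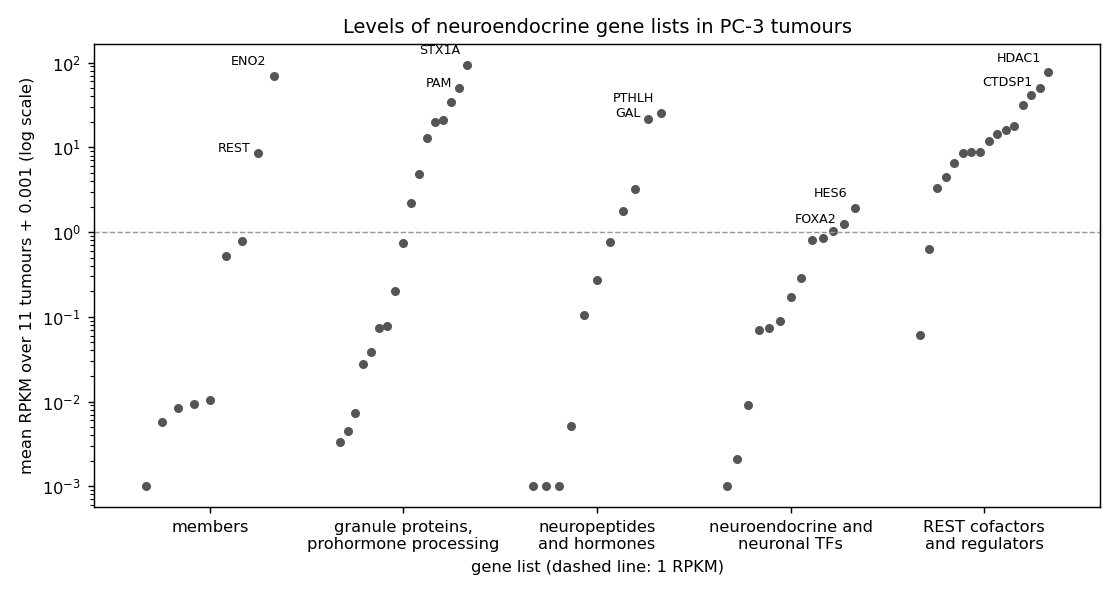
Mean level over the 11 tumours, as RPKM + 0.001 on a log axis, of the 9 members and of the genes of 4 related lists; each point is a gene, the dashed line is 1 RPKM and the highest genes of each list are named. Of the members 2 lie above the line, of the granule list 8 of 17, of the neuropeptides 4 of 11, of the transcription factors 3 of 13 and of the REST cofactors 14 of 16.

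Among the 11 neuropeptides and hormones, 4 had at least 1 RPKM on average. PTHLH, the parathyroid hormone-like hormone, had 25.6 RPKM, GAL, the precursor of galanin, 21.5 RPKM, and ADM2 3.24 RPKM. GRP, SST and TAC1 had 0 reads in all tumours. GAL was 13.8 ± 6.37 RPKM (SD, n = 5) in PBS and 27.9 ± 15.1 RPKM (SD, n = 6) in A2M* tumours, with a log2 fold change of 0.99 (SE 0.446; edgeR quasi-likelihood test, Benjamini-Hochberg adjusted p = 0.699). It was the 1 gene with an unadjusted p under 0.05 among the 5 tested, of which 4 were higher and 1 lower, with a median of 0.04. Over all genes tested, 7.08% had such a p.

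Of the 13 transcription factors and related regulators of neuroendocrine and neuronal cells, 3 had at least 1 RPKM: HES6 with 1.92, FOXA2 with 1.23 and the Notch ligand DLL3 with 1.04 RPKM. NEUROG3, which starts the endocrine programme of the pancreas, had 0 reads, as did INSM1 among the members. Of the 8 genes tested, 7 were higher and 1 lower in A2M* tumours, with a median log2 fold change of 0.30. FOXA2, a forkhead factor, had 0.948 ± 0.278 RPKM (SD, n = 5) in PBS and 1.46 ± 0.387 RPKM (SD, n = 6) in A2M* tumours, at a log2 fold change of 0.59 (SE 0.195; edgeR quasi-likelihood test, Benjamini-Hochberg adjusted p = 0.640). Since the adjusted threshold was passed by 0 genes of any of these lists, no gene named here is called changed.

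As a description, the genes most like each member over the 11 tumours were found among 15475 genes with a mean of at least 20 counts, by Pearson r of log2 CPM. For ENO2 they were SLC2A1 (r = 0.980), which is on the hypoxia-inducible list, and ANKZF1 (r = 0.976). The 14 hypoxia-inducible genes had r with ENO2 between 0.785 and 0.980, at places 1 to 390 in this order. For REST the most alike were NIPBL (r = 0.967) and NPAT (r = 0.963). SYP was most like LOC148413 (r = 0.929) and FLJ44511 (r = 0.913), and SCG2 most like B3GALNT1 (r = 0.925) and KIF21A (r = 0.901). These coefficients share libraries, depth and normalization, and the highest of many coefficients is high by selection.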

How the data were processed

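Libraries were made from total RNA with an Illumina TruSeq RNA v2 kit, and base calls were converted with bcl2fastq 1.8.4 per the submitters' processing notes. The authors separated graft from host reads with xenome, mapped those called human to hg19 with TopHat2 and used featureCounts for the number per RefSeq gene. Versions of these tools, the strand setting and the handling of reads with several places are not given in the sources used here. The authors deposited whole-number counts without normalization. The RPM values deposited by the authors equal each count per 1e+06 counted reads, with a largest difference of 4.99e-07, and the RPKM values deposited by the authors divide RPM by exon length. Mouse reads are not used here.

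Groups follow the treatment labels, without covariates. Counts were filtered with filterByExpr, TMM-normalized (factors 0.958 to 1.03) and compared in edgeR 4.0.16 (R 4.3.3) by its quasi-likelihood test over 16630 genes, calling a Benjamini-Hochberg adjusted p under 0.01. The common biological coefficient of variation was 13.9%. Log2 CPM used a prior count of 2. The standard error is the fold change divided by the square root of F, and 95% intervals of ratios span 2.26 such errors on each side (9 residual degrees of freedom). Single values were compared by exact permutation over all labelings. Correlations used 100000 permutations. The steps were tested on simulated data. Alternatives were other normalizations, filters and tests (DESeq2 1.42.0, limma 3.58.1), another pseudocount than 0.1, and leaving out single tumours.

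The members and gene lists were chosen with earlier results of these data known. Named were all members, the 3 genes of highest mean RPKM in each list, list genes with an unadjusted p under 0.05 or cited as not detected (of which the text gives examples), and the 2 genes most like each member. For the transcription factor list, 1 gene is not reported here and its counts do not include it. Other genes, such as VGF, SYN1 and SRRM4, were picked with their values in view. RE1 elements were searched in GRCh37 with GENCODE positions, and promoters come from RefSeq for GRCh38.p14, where 5 of the 9 members matched. Figures were drawn with matplotlib 3.10.9.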

Additional observations from a re-analysis of the deposited data

Results flagged for a closer look

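In 90 group values of 4 to 10 tumours, a tumour was searched for whose gap to the nearest other exceeded Dixon's 95% critical value for the group's range. Such a tumour was found in 3 of them, where chance alone gives about 1 in 20, or 4.5. All 3 are PBS tumours. REST had 76.0 CPM in T126, against 58.1 to 62.8 CPM in the other PBS tumours. FOXA2 had 3.71 CPM in T123, against 2.06 to 2.38 CPM. BTRC had 34.6 CPM in T125, against 38.0 to 39.1 CPM.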

How the results depend on the processing

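No paired analysis was possible because the groups share no tumour numbers. ENO2 was lower in A2M* tumours under each of the 20 alternatives run for its log2 fold change, from -0.84 to -0.57 with 1 tumour left out and from -0.71 to -0.65 otherwise, and its edgeR, DESeq2 or limma-voom adjusted p stayed between 0.266 and 1. The small differences of REST and SYP had no stable sign: REST was -0.016 without T123, -0.0067 without T124, -0.016 without T127, -0.0038 without T130 and -0.030 without T131, and SYP was -0.028 without T125 and -0.033 without T126, against ranges over single tumours left out of -0.030 to 0.087 and -0.033 to 0.15. SCG2 kept its sign, between 0.038 and 0.26. The median of the members tested lay between -0.0089 and 0.058 with 1 tumour left out. The count of genes past the adjusted threshold was 1 with DESeq2, 1 with the edgeR exact test, 1 with the likelihood ratio test and 241 when both edgeR and DESeq2 had to give an unadjusted p no higher than 0.01 (122 higher and 119 lower), which also took the count of members to 1. It was 0 to 0 for genes and 0 to 0 for members with 1 tumour left out, where 682 to 1684 genes had an unadjusted p under 0.05. Scaling by library size alone shifted the median of all genes to 0.042, with 1022 genes higher and 308 lower at an unadjusted p under 0.05. Of the 8 neighbouring pairs 4 differed in level, 4 to 4 with 1 tumour left out, but 0 within the 6 A2M* tumours alone, where fewer tumours limit the exact p, and the PBS tumours alone allow no p under 0.0625. Members below the filter that differed were 0 to 1, the 1 being CHGB without T130, the A2M* tumour with 0 reads of it. REST relations that passed were 0 to 1, the 1 being SYP without T131 (r = -0.714), and hypoxia relations were 1 to 1. Except where stated, the cause was not tested. Depth limits CHGA, CHGB, NCAM1, INSM1 and UCHL1, which had at most 5 reads in a tumour.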
